A study of Mus musculus with 34 samples.

Results

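Tumours of Pdgf-c transgenic mice were compared with livers of Pdgf-c transgenic mice of the same age, 48 weeks. The samples were chosen by title: 5 tumours against 5 livers, which are 10 of the 34 arrays of the series. Both groups carry the Pdgf-c transgene (strain label Pdgf-c Tg), neither is labelled with peretinoin, and the tissue label of both is liver. The study weaned mice at week 4 onto a basal diet or a diet with peretinoin, took livers at week 20 for fibrosis and took livers and tumours at week 48. Livers of 4 non-transgenic C57/B6 mice of week 48, labelled WT, are given beside the 2 groups. Each sample was hybridised to 1 Affymetrix mouse array, and the values are MAS5 signal intensities. The labels used here give neither the promoter of the transgene nor the histology of a tumour. Which of these tissues shared a mouse is also not stated, so the p-values below take each array, not each mouse, as the unit.

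Platelet-derived growth factor C (PDGF-C) is a ligand of the receptor PDGFR-alpha, through which it drives the growth of mesenchymal cells such as hepatic stellate cells, the main makers of scar matrix in liver. Hepatocytes divide rarely in an adult liver and divide often in a liver tumour. They also differ by position: those around the central vein show Wnt/beta-catenin activity and express Glul, Axin2, Cyp2e1 and Cyp1a2, and those near the portal tract express urea cycle genes such as Cps1.

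All 10 arrays carried liver transcripts. Alb (albumin) gave 21220.3 to 28294.4 in tumours and 22170.9 to 26793.9 in transgenic livers, and Cps1, the first enzyme of the urea cycle, gave 22271.6 to 26627.1 in tumours and 24548.7 to 27825.8 in transgenic livers. Transgenic liver 4 stood apart. Its mean correlation with the other livers of its group was 0.936, against 0.961 to 0.966 for the other livers and 0.967 to 0.972 for the tumours. It also carried transcripts of other tissues: its mean log2 level over 18 skeletal muscle genes was 13.24, against 5.62 to 5.89 in the tumours and 5.71 to 7.81 in the other transgenic livers, of which liver 1 was the highest. Among the WT livers, liver 4 also carried muscle transcripts (11.12, against 6.02 to 6.31 in the other 3). Over 15 pancreatic acinar genes the mean of transgenic liver 4 was 11.27, against 5.72 to 6.04 in the tumours, 5.61 to 5.77 in the other transgenic livers and 5.68 to 6.09 in WT livers. The 3' to 5' ratio of Actb, a sign of RNA quality, was 1.25 to 1.47 in tumours and 1.30 to 1.57 in livers. The Y-linked Eif2s3y gave 1005.5 or more and Xist 101 or less on each of the 10 arrays.

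No gene passed the test across all genes. A difference is the mean log2(signal + 16) of tumours minus that of transgenic livers, and its error (±) is limma's standard error. It comes from a fit of all 34 arrays, whose 7 groups share an estimate of the spread. A call is a Benjamini-Hochberg adjusted p under 0.05 over 13099 genes. The number called was 0 (background 0%), and the smallest adjusted p was 0.147 (Abi3bp). At an unadjusted p under 0.05, 554 genes were higher in tumours (background 4.23%) and 521 were lower (3.98%), which is 1075 in all. A limma fit of the 10 compared arrays alone gave 681 higher and 560 lower at that level, with 0 called. The 2 groups did not overlap in 133 genes higher in tumours (1.02%) and 127 lower (0.970%). At any p, 51.9% of genes were higher in tumours, the background for counts below that name no p. A fit with array weights called 137 genes, among them Cdk1, Gins2, Rrm2, Ly6d, Golm1, Apoc2, Slc1a2, Mgp, Col4a1, Macrod1 and Abi3bp. Fits with the replicate number as a block called 16 genes (fixed block, the 10 arrays alone) and 58 (random block, all arrays). The labels do not say that equal numbers are pairs. Against WT liver, tumours had 2341 genes called higher (17.9%) and 1207 lower (9.21%), while transgenic livers had 1858 higher (14.2%) and 862 lower (6.58%). Below, "higher" and "lower" describe signals, and a count at p under 0.05 is unadjusted and is set against these backgrounds.

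**Figure D1:**
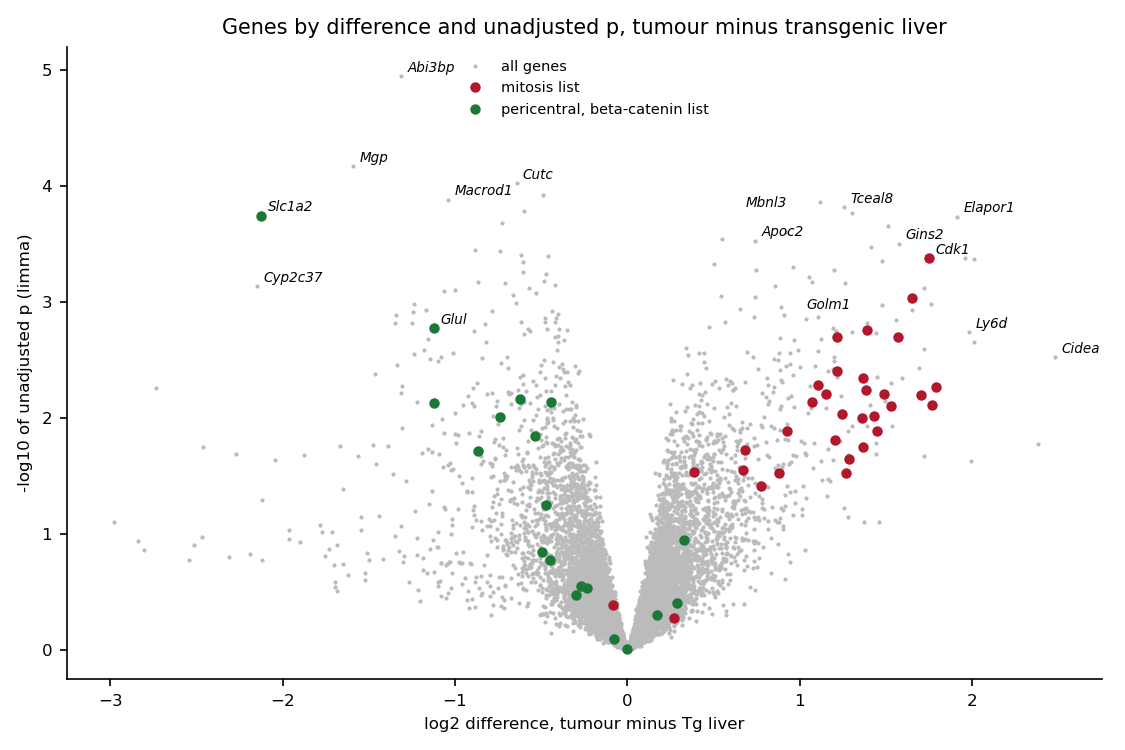
Each point is 1 of 13099 genes, with its log2 difference (tumour minus transgenic liver) on the x axis and -log10 of its unadjusted limma p on the y axis. Most of the mitosis list (red) lies to the right and most of the pericentral list (green) to the left, and no gene reached an adjusted p under 0.05.

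Genes of mitosis stood higher in tumours as a block. Of 40 listed genes 32 were measured, 31 of them were higher in tumours, and 30 were so at p under 0.05 where the background is 4.23%. The median difference of the list was 1.28 on the log2 scale, against 0.01 over all genes. The 2 others were Zwint (-0.08, with its other 5 probe sets at -0.39 to 0.14), a kinetochore protein, and Foxm1 (0.27), the transcription factor of mitotic genes. The mean log2 level of the list was 9.34, 7.68, 8.63, 8.10 and 9.36 in tumours 1 to 5, against 7.28, 6.95, 7.14, 7.88 and 7.90 in transgenic livers 1 to 5 and 6.28 to 6.71 in WT livers. Tumours 1 and 5 were highest, and tumour 2 lay below livers 4 and 5. Without tumour 5 the count at p under 0.05 was 20, without liver 1 it was 27, and without liver 4 it stayed at 30. Against WT liver 28 of the 32 were called higher in tumours (background 17.9%) and 9 in transgenic livers (14.2%).

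The groups did not overlap for 4 of the 32 genes (background 1.02%): Cdk1, Plk1, Nusap1 and Cenpf. Cdk1 encodes the kinase that starts mitosis, and its signals, by replicate number, were 1518, 360.1, 561.8, 590.6 and 1246.4 in tumours, against 158.7, 129.7, 184.4, 315.4 and 331.8 in transgenic livers. Tumours 1 and 5 were well above every liver, and tumour 2 was close to livers 4 and 5. The difference was 3.37-fold (log2 1.75 ± 0.45, limma adjusted p = 0.217). Plk1, the polo-like kinase of spindle assembly, gave 399.6, 107.1, 206.9, 180.3 and 342 in tumours and 52.1, 59, 53.7, 89.9 and 105 in transgenic livers. Tumour 2 was the lowest tumour for this gene too, just above liver 5, and the difference was 1.49 ± 0.51 (adjusted p = 0.362). Nusap1, a spindle microtubule protein, gave 581.5, 165.9, 279.8, 231.7 and 515.3 in tumours and 134.5, 92.8, 94.4, 156.5 and 165.7 in transgenic livers. Tumour 2 exceeded liver 5 by less than 1 signal unit (difference 1.24 ± 0.45, adjusted p = 0.411). Cenpf, a kinetochore protein, differed by 1.20 ± 0.47 (adjusted p = 0.469), but its other probe set gave 0.06.

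Other members showed the same arrays at the top. Mki67, which encodes the proliferation antigen Ki-67, gave 870.8, 230.3, 342, 248.5 and 998.6 in tumours and 161, 98.8, 139.8, 200.8 and 255.8 in transgenic livers. Here 3 tumours lay above every liver, and tumours 2 and 4 lay below liver 5 (difference 1.36 ± 0.50, adjusted p = 0.423). Top2a, the topoisomerase that untangles sister chromatids, gave 621, 198.2, 382, 337.2 and 702.8 in tumours and 147.7, 64.9, 99.1, 238.4 and 272.6 in transgenic livers. Tumour 2 alone lay among the livers (difference 1.39 ± 0.41, adjusted p = 0.257). Pbk (1.65 ± 0.45), a mitotic kinase, Cdca3 (1.57 ± 0.47), which promotes mitotic entry, and Aurka (1.37 ± 0.45), the Aurora A kinase of the spindle poles, each had 4 tumours above every liver. A second probe set of Cdca3 gave a difference of -0.01.

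Late cell cycle genes are known to be switched on through a promoter element called the cell cycle genes homology region (CHR), with the letters TTTGAA, often together with a CCAAT box. RefSeq promoter windows of GRCm38.p6, from 250 bases before to 50 bases after the start of a gene, matched 26 of the 32 mitosis genes. TTTGAA stood on either strand in 20 of these 26 windows (76.9%), against 12.2% of the 10565 windows of all genes tested and 4 of 25 windows (16%) of the DNA replication list. CCAAT stood on either strand in 20 of 26 (76.9%), against 38.2% of all genes tested and 17 of 25 (68%) of the replication list. The windows of 3 of the 4 mitosis genes whose groups did not overlap are printed because they hold the CHR letters. Nusap1 has no TTTGAA in its window. Capitals mark TTTGAA on either strand, and the strand of the gene is read 5′ to 3′.
Cdk1, chr10:69352863-69353162, minus strand: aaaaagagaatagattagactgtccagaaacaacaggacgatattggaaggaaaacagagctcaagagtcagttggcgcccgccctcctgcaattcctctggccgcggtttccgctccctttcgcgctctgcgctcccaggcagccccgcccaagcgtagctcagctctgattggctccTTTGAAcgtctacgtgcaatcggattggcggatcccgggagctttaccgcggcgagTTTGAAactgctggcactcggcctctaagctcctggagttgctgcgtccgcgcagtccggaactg
Plk1, chr7:122159185-122159484, plus strand: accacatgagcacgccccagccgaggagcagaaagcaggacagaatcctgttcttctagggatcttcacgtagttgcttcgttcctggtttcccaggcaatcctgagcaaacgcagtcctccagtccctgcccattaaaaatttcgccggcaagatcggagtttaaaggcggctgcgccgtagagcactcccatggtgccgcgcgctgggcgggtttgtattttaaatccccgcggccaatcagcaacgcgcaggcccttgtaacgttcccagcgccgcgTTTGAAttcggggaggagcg
Cenpf, chr1:189688037-189688336, minus strand: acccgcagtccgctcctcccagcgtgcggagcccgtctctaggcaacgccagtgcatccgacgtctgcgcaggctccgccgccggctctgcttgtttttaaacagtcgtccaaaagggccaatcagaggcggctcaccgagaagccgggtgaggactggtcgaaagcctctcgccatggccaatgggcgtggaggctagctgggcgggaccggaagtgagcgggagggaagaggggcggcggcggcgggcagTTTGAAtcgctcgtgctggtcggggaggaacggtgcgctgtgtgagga
The Cdk1 window holds 2 matches, which begin 71 and 15 bases before the start. The Plk1 match begins at base 31 after the start and the Cenpf match at base 3. A match describes the letters only, and binding was not measured here.

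Genes of DNA replication were higher by less. Of 29 measured members 27 were higher in tumours, 9 at p under 0.05 (background 4.23%) and 0 lower at that level, with a median of 0.35. Without tumour 1 the count was 3, without tumour 5 it was 5, and without tumour 2 it was 16. Gins2, a subunit of the replicative helicase, gave 313.4, 178.6, 199.6, 238.9 and 268.2 in tumours and 88.3, 65.5, 46.2, 101.5 and 51.7 in transgenic livers. All 5 tumours were above all 5 livers, and WT livers averaged 43.2 ± 19.3 (SD, n = 4). The difference was 2.99-fold (1.58 ± 0.39, adjusted p = 0.217). Rrm2, the ribonucleotide reductase subunit that makes deoxynucleotides, gave 1705.5, 926.2, 1046.1, 962.7 and 2512.8 in tumours and 639, 314.3, 524.7, 687.5 and 801.4 in transgenic livers. Its groups did not overlap either (1.20 ± 0.31, adjusted p = 0.225). Mcm2, of the helicase ring, was the third such member (0.74 ± 0.29). Prim1, a primase subunit (0.67 ± 0.25), and Uhrf1, which carries DNA methylation through replication (1.03 ± 0.42), overlapped between groups.

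Among 15 G1 cyclins and kinases 3 were higher at p under 0.05, Ccnd1, Rbl1 and Cdk6, and the median was 0.26. The count was 1 without liver 4, 5 without tumour 4 and 6 without liver 5. Ccnd1 encodes cyclin D1 and gave 4982.3, 4095.2, 3162.6, 3497.2 and 5131.3 in tumours, 2115.6, 2502.2, 1954.4, 2375.4 and 3583.3 in transgenic livers and 765 ± 190 (SD, n = 4) in WT livers. Only tumours 3 and 4 lay below liver 5. Its difference of tumour and transgenic liver was 0.74 ± 0.34 (adjusted p = 0.568), and that of transgenic and WT liver was 1.70 ± 0.36 (adjusted p = 0.000798). Of 17 CDK inhibitors and p53 targets only Cdkn3, a phosphatase made in dividing cells, was at p under 0.05 by limma (1.10 ± 0.34), and the list median was 0.04. Cdkn1a, the inhibitor p21, gave 1122, 1740.3, 1040.8, 719.8 and 1738.1 in tumours and 542.4, 1062.6, 404.9, 463.7 and 958.4 in transgenic livers. Tumours 2 and 5 and livers 2 and 5 were the high arrays of their groups. The groups overlapped (0.90 ± 0.47, limma adjusted p = 0.644). Cdkn2b, the inhibitor p15, was higher in all 5 tumours than in any liver (170.8 to 304.6 in tumours and 107.7 to 158.4 in transgenic livers, 0.56 ± 0.33, limma adjusted p = 0.718).

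**Figure D2:**
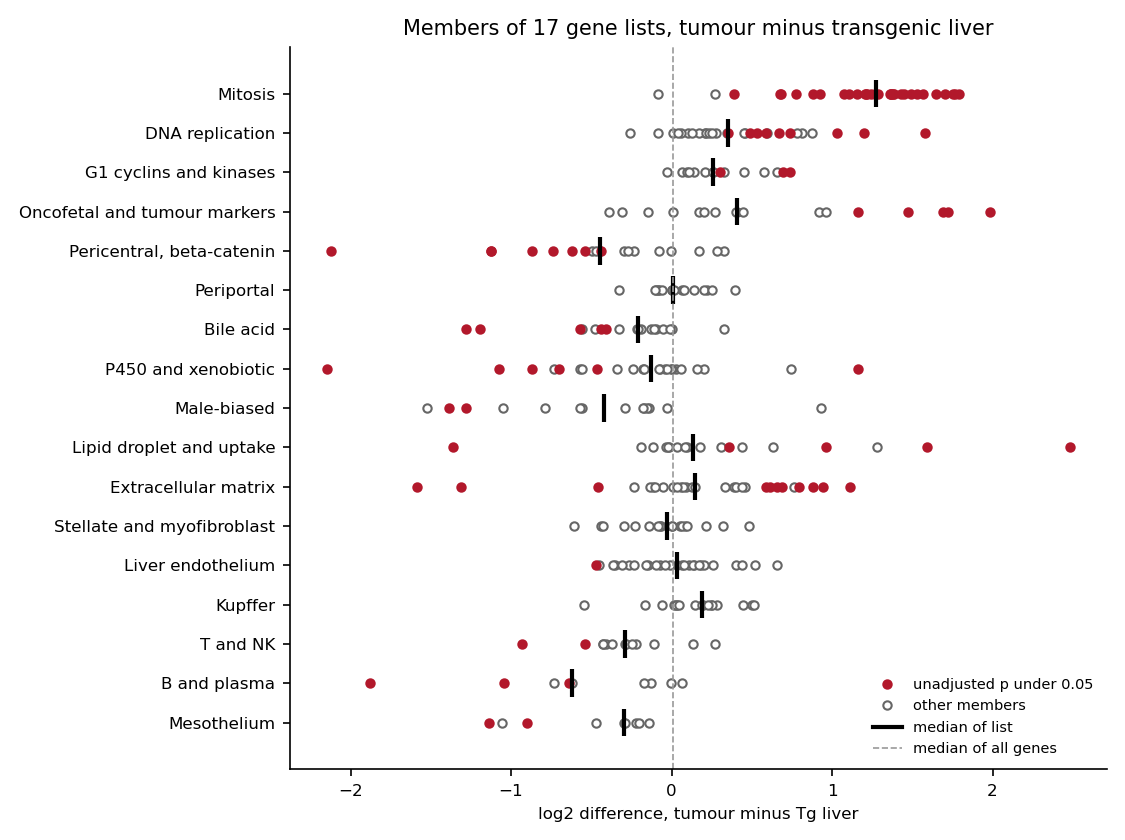
Each row is a gene list and each point a measured member, placed by its log2 difference (tumour minus transgenic liver). Filled points are at an unadjusted p under 0.05, black bars are list medians and the dashed line is the median of all genes (0.01). The mitosis list sits farthest to the right, with a median of 1.28, and the lists of B and plasma cells (-0.62) and pericentral genes (-0.45) sit to the left.

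Oncofetal and liver tumour markers were mixed. Of 17 measured 14 were higher in tumours, 5 at p under 0.05 (Golm1, Ly6d, Spink1, Akr1c18 and Scd2) or 3 without tumour 5, and the median was 0.41. Ly6d, a small surface protein of the Ly6 family, gave 7798.6, 5807.9, 6417.9, 2442.1 and 8052.6 in tumours and 769.5, 1537.7, 819.4, 2374.9 and 2430.6 in transgenic livers. The groups did not overlap, but tumour 4 was close to livers 4 and 5 and far below the other tumours. WT livers averaged 107 ± 23.2 (SD, n = 4). The difference of tumour and transgenic liver was 3.96-fold (1.99 ± 0.58, adjusted p = 0.257). Golm1, a Golgi membrane protein known as a serum marker of human liver cancer, gave 1262.4, 298.1, 781.6, 936.3 and 1214.9 in tumours and 222.5, 189.1, 191.7, 627.7 and 328.7 in transgenic livers. Tumour 2 lay among the livers and liver 4 was the highest liver (1.48 ± 0.41, adjusted p = 0.253). Spink1, a trypsin inhibitor, gave 550.3, 163.5, 337.1, 806.2 and 185.2 in tumours and 156.4, 56.3, 28.9, 247.1 and 98.1 in transgenic livers. It was highest in tumour 4, where Ly6d was lowest, and it is also a product of pancreatic acini, whose transcripts liver 4 carried (1.69 ± 0.54).

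Afp, the alpha-fetoprotein of fetal liver, did not follow this order. It gave 585.4, 506.2, 245.6, 413.1 and 293.5 in tumours, 221.8, 278.5, 552.3, 620.1 and 701.1 in transgenic livers and 53.9 ± 8.25 (SD, n = 4) in WT livers. Tumours and transgenic livers overlapped fully, with a difference of -0.15 ± 0.36 (adjusted p = 0.978). Both lay above WT liver, by 2.54 ± 0.38 for tumours (adjusted p = 7.68e-06) and by 2.69 ± 0.38 for transgenic livers (adjusted p = 5.44e-06). Scd2, a fatty acid desaturase of fetal liver, gave 6344.8 to 12178.9 in tumours and 1788.1 to 10001.1 in transgenic livers, of which livers 4 and 5 were the highest (1.16 ± 0.56).

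Pericentral beta-catenin target genes were lower in tumours. Of 19 measured 16 were lower, 8 at p under 0.05 (background 3.98%) and 0 higher at that level, with a median of -0.45. Without liver 4 the count was 10 and without tumour 5 it was 6. The mean log2 level of the list was 9.69 to 9.99 in tumours and 9.97 to 10.72 in transgenic livers, where livers 4 and 5 were lowest. Against WT liver 10 of the 19 were called lower in tumours (background 9.21%) and 3 in transgenic livers (6.58%).

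Slc1a2, the glutamate transporter GLT-1 of pericentral hepatocytes, gave 116.3, 167, 206.4, 224.1 and 93.8 in tumours and 1795.9, 845.8, 924.7, 392.7 and 354.9 in transgenic livers. The highest tumour was below the lowest liver, and WT livers averaged 1639 ± 473 (SD, n = 4). The difference was -2.12 ± 0.50, or 4.36-fold lower in tumours (adjusted p = 0.217). Glul, the glutamine synthetase of the innermost ring of hepatocytes, gave 2851.4, 6470.4, 4911.5, 4730.6 and 6559.3 in tumours and 18128.5, 11330.9, 11558.8, 5629.6 and 10353.5 in transgenic livers. Tumours 2 and 5 were above liver 4 and below the other livers (-1.12 ± 0.33, adjusted p = 0.257). Axin2, a feedback inhibitor and general Wnt target, gave 164.8, 192.1, 207.9, 191.8 and 80.2 in tumours and 303.2, 227.2, 285.8, 273.4 and 198.4 in transgenic livers. Tumour 3 was above liver 5 alone, and tumour 5 was far below the rest (-0.62 ± 0.21, or -0.40 without tumour 5, adjusted p = 0.376).

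Other members were dim or overlapped between the groups. Sp5, a transcription factor induced by Wnt, was near the low end of the signals in every tumour, at 4.5 to 18.2 in tumours and 17.8 to 66.6 in transgenic livers (-1.12 ± 0.39). Rhbg, an ammonium transporter (-0.74 ± 0.27), Cyp1a2 (-0.87 ± 0.35) and Cyp27a1, a bile acid enzyme (-0.44 ± 0.15), were lower with overlap. Lgr5, the R-spondin receptor, gave 98.7 to 293.3 in tumours and 139.1 to 423.7 in transgenic livers (-0.49 ± 0.33, limma adjusted p = 0.786). Rspo3, an R-spondin made by central vein endothelium, gave 339.1, 328.1, 278.9, 196.9 and 309.5 in tumours and 639.2, 460.8, 414.6, 269.9 and 318.1 in transgenic livers. It was lowest in tumour 4 and in liver 4 (-0.47 ± 0.22, limma adjusted p = 0.568). Cyp2e1, pericentral as well, gave 25053.5 to 34387.2 in tumours and 26884.5 to 30505.5 in transgenic livers (-0.0041 ± 0.10), at the bright end of the array. In bulk tissue, fewer pericentral cells and less RNA per cell cannot be told apart.

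Beta-catenin acts through TCF factors, which bind a core with the letters CTTTGA; a stretch CTTTGAA holds both these letters and those of the CHR. These letters stood on either strand in 6 of the 13 windows matched to the pericentral list (46.2%), against 12.5% of all genes tested and 3 of 26 (11.5%) mitosis windows. The window of Slc1a2, the member with the largest difference, is printed with these letters in capitals on either strand.
Slc1a2, chr2:102706188-102706487, plus strand: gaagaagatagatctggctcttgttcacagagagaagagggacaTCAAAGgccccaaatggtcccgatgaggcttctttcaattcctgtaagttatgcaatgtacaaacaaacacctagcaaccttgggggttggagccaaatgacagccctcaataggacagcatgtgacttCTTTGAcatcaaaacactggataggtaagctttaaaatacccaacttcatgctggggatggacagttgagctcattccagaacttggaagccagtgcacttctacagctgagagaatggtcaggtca
It holds 2 matches, which begin 206 and 77 bases before the start.

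Periportal genes were spread around the median of all genes: 10 of 16 were higher and 6 lower in tumours, 0 in either direction at p under 0.05 by limma, with a median of 0.01. Cps1 differed by -0.08 ± 0.08 and Alb by 0.01 ± 0.12. Hnf4a, the nuclear receptor that maintains hepatocyte identity, gave 7391.2 to 9881.7 in tumours and 7701.9 to 9984.8 in transgenic livers (-0.08 ± 0.13). Of 20 mature hepatocyte genes 2 were lower at p under 0.05, Cyp2c29 and Cyp1a2, and the median was 0.00.

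**Figure D3:**
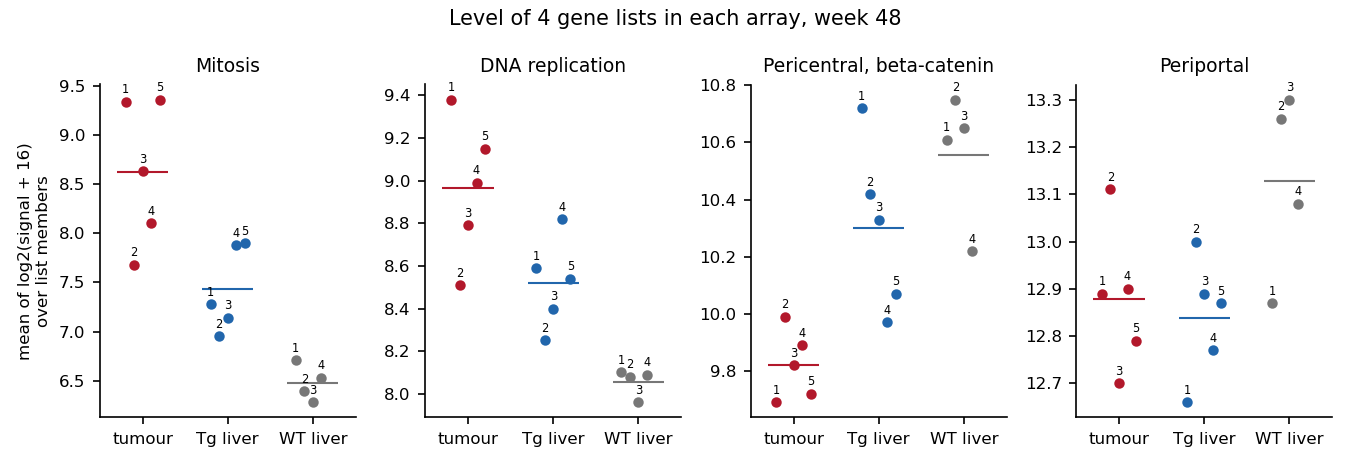
Mean log2(signal + 16) over the members of 4 gene lists in each array of week 48, with tumours on the left, transgenic livers in the middle and WT livers on the right; digits are replicate numbers and bars group means. Mitosis is highest in tumours 1 and 5 (9.34 and 9.36), the pericentral list is lower in the tumours except that tumour 2 (9.99) lies just above transgenic liver 4 (9.97), and the periportal list overlaps between tumours and transgenic livers.

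Detoxifying and bile acid genes were lower in part. Of 24 P450 and xenobiotic genes 5 were lower and 1 higher at p under 0.05, and without liver 1 the numbers were 3 and 0. Cyp2c37, an arachidonate-metabolising P450, gave 1242.2, 1385.8, 619.3, 2280.2 and 231.8 in tumours, 14982, 5465.6, 3481.3, 2919.9 and 1273.2 in transgenic livers and 20070 ± 3225 (SD, n = 4) in WT livers. Tumours 2 and 4 were above liver 5 alone, the other tumours were below every liver, and liver 1 was by far the highest transgenic liver. The difference of tumour and transgenic liver was -2.15 ± 0.57 (adjusted p = 0.225), and transgenic livers lay 4.91-fold below WT livers (-2.30 ± 0.61, adjusted p = 0.00637). Nr1i3, the receptor CAR that induces P450 genes, was also lower (-0.70 ± 0.31), as was Cyp2c29 (-0.47 ± 0.17).

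Of 18 bile acid genes 16 were lower, 5 at p under 0.05. That count was 1 without tumour 1, 2 without liver 2 or liver 3, and 3 without tumour 4 or liver 1. Cyp8b1, the sterol 12-alpha-hydroxylase, gave 292.5, 933, 1513.8, 1895.7 and 915.2 in tumours and 1397.6, 3264.2, 3751, 2705.6 and 1025.9 in transgenic livers. Tumours 1, 2 and 5 were below every liver, and livers 1 and 5 were the low livers (-1.19 ± 0.49, or -0.78 without tumour 1, adjusted p = 0.498). Slc10a1, the bile salt uptake transporter NTCP, differed by -0.57 ± 0.25, and Slco1a1, an organic anion transporter higher in males, by -1.28 ± 0.58. Of 14 male-biased genes 13 were lower, 2 of them at p under 0.05, Slco1a1 and Susd4 (-1.39 ± 0.55), with a median of -0.42. Sult1e1, the estrogen sulfotransferase, gave 541.7, 4100.0, 2190.2, 1002.4 and 3397.8 in tumours and 170.8, 1603.2, 55.1, 80.0 and 2194.4 in transgenic livers. It was high in arrays 2 and 5 of both groups (2.38 ± 0.94, limma adjusted p = 0.471).

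Matrix genes went both ways. Of 29 measured 8 were higher (background 4.23%) and 3 lower (3.98%) at p under 0.05, and the median was 0.15. Without tumour 2 the count higher was 12 and the median 0.35, and the median was 0.06 without tumour 4 and 0.29 without liver 4. Against WT liver 25 were called higher in tumours (background 17.9%) and 24 in transgenic livers (14.2%). Mgp, the matrix Gla protein that inhibits calcification, gave 368.5, 214.1, 624.6, 611.3 and 319 in tumours and 906.9, 1203, 1402.9, 1455.3 and 1231.8 in transgenic livers, against 152 ± 105 (SD, n = 4) in WT livers. All 5 tumours were below all 5 transgenic livers, tumour 2 the furthest. The difference of tumour and transgenic liver was -1.59 ± 0.35, or 3.01-fold lower in tumours (adjusted p = 0.217), and tumours stayed above WT liver (1.49 ± 0.37, adjusted p = 0.00257). Abi3bp, a secreted matrix-binding protein on none of the lists, gave 129.9, 65.9, 127.6, 145.8 and 79.1 in tumours and 395.6, 377.4, 254.5, 287.2 and 171.8 in transgenic livers. Its groups did not overlap, and WT livers averaged 233 ± 36.7 (SD, n = 4). It had the smallest p of all genes (-1.31 ± 0.25, adjusted p = 0.147), and was called when tumour 4 or liver 5 was left out.

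Collagens of the basement membrane and the fibrils were among the higher members. Col4a1, a chain of basement membrane collagen, gave 5033.6, 3506.4, 3553.9, 5331.9 and 5135.6 in tumours and 2206.6, 1816.5, 2242.9, 3368.9 and 2627.4 in transgenic livers. The lowest tumour was above liver 4, the highest liver (1.84-fold, 0.88 ± 0.27, adjusted p = 0.304). Col4a2, its partner chain, differed by 0.61 ± 0.21 with overlap. Col1a1, the main fibrillar collagen, gave 974.4, 664.4, 965.8, 1290.4 and 931.9 in tumours and 445.1, 359.5, 476.2, 690.8 and 504.7 in transgenic livers. Tumour 2 alone lay below liver 4 (0.94 ± 0.29, adjusted p = 0.304). Col15a1, of the vascular basement membrane, was higher too (0.59 ± 0.20). Postn, the matricellular protein periostin, gave 324, 510.5, 460.6, 311 and 780.0 in tumours, 213.6, 150.9, 197.9, 353.6 and 141.1 in transgenic livers and 455 ± 133 (SD, n = 4) in WT livers. Tumours 1 and 4 were below liver 4, and the difference of tumour and transgenic liver was 1.11 ± 0.32, with transgenic livers below WT livers (-1.08 ± 0.34, adjusted p = 0.0198).

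The PDGF genes showed small differences between tumour and transgenic liver, none of them called. Pdgfc, the gene of the transgene, gave 809.8, 871.7, 671.8, 613.2 and 1015.1 in tumours, 1218.8, 828.5, 517.2, 578.2 and 846.2 in transgenic livers and 482 ± 26.4 (SD, n = 4) in WT livers. The labels do not say whether its probe set reads the transgene. The tumours lay within the range of the transgenic livers (0.04 ± 0.20). The receptor genes differed by -0.38 ± 0.29 for Pdgfra and -0.06 ± 0.23 for Pdgfrb. Pdgfb, a ligand of PDGFR-beta, was the 1 of 7 members at p under 0.05 (0.47 ± 0.22, with its other probe set at 0.099). None of 18 stellate and myofibroblast markers was at p under 0.05 by limma, and their median was -0.03. In TGF-beta signalling Tgfbr3, the co-receptor betaglycan, gave 587.6 to 757.6 in tumours and 854.0 to 1482.1 in transgenic livers, without overlap (-0.60 ± 0.20, adjusted p = 0.350). Ltbp1, which holds latent TGF-beta in the matrix, was lower with overlap (-0.53 ± 0.18).

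**Figure D4:**
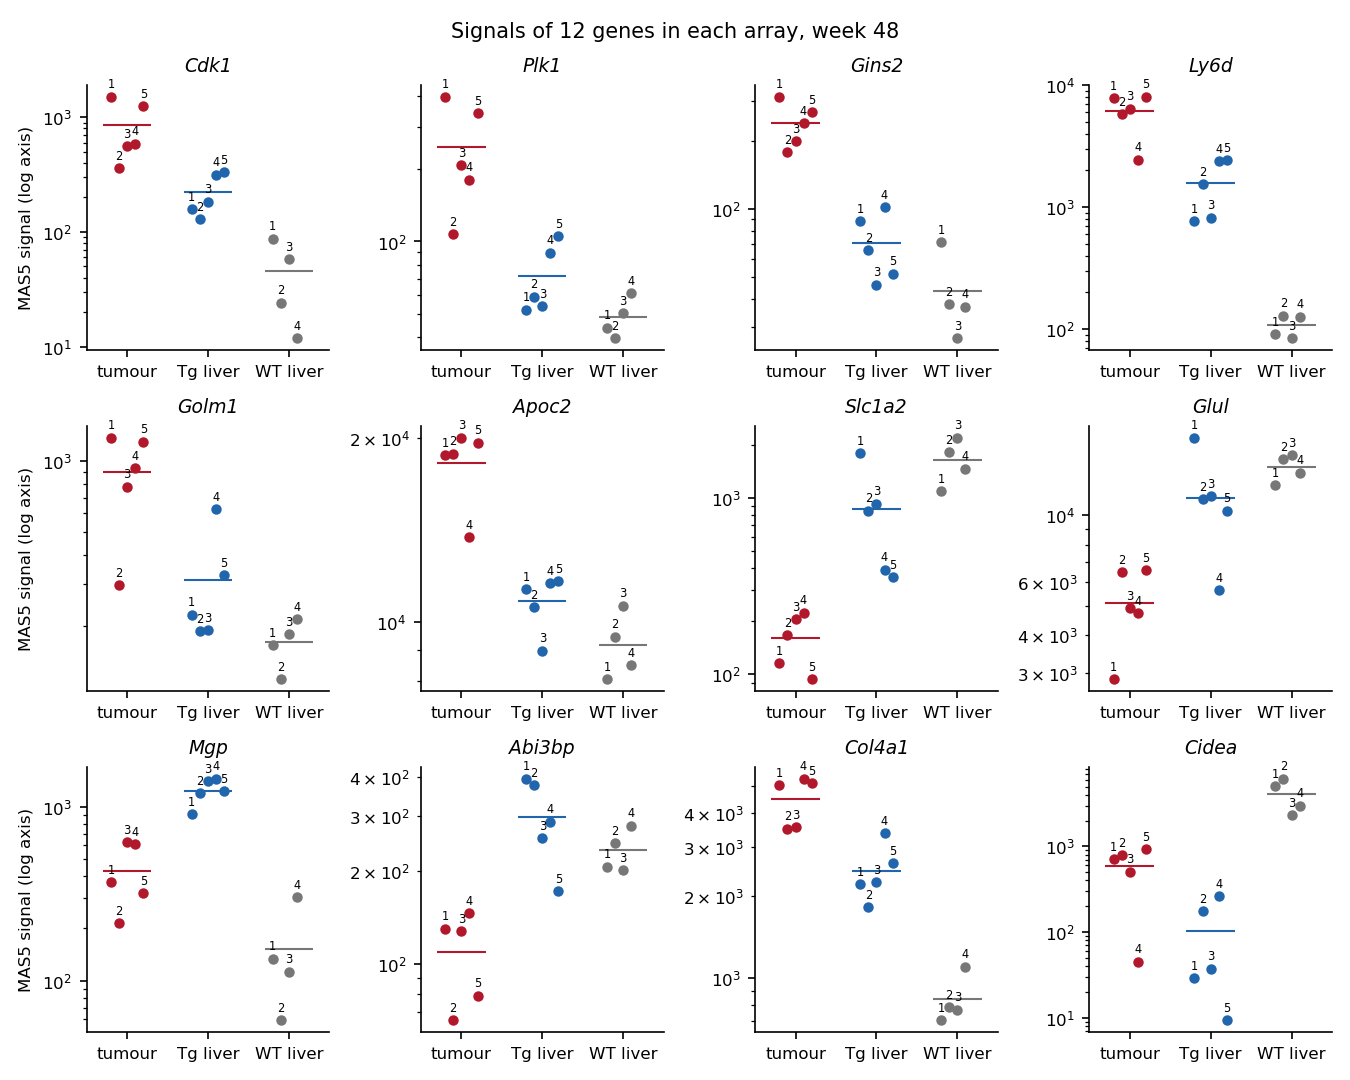
MAS5 signals of 12 genes in each array of week 48 (log axis), with tumours on the left, transgenic livers in the middle and WT livers on the right; digits are replicate numbers and bars group means. Tumours and transgenic livers do not overlap for Cdk1, Plk1, Gins2, Ly6d, Apoc2, Slc1a2, Mgp, Abi3bp and Col4a1, and they overlap for Golm1, Glul and Cidea.

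Cidea, a protein that enlarges lipid droplets, had the largest difference towards higher signals in tumours among all 13099 genes, and gave 705.5, 790.5, 506.9, 45.1 and 926.5 in tumours, 28.9, 175, 37.3, 262.2 and 9.3 in transgenic livers and 4132 ± 1798 (SD, n = 4) in WT livers. In 4 tumours it was above every transgenic liver, and tumour 4 lay among them. The difference of tumour and transgenic liver was 2.48 ± 0.77 (adjusted p = 0.313), and that of tumour and WT liver was -3.11 ± 0.82 (adjusted p = 0.00447). Of 18 lipid droplet and uptake genes 4 were higher and 1 lower at p under 0.05, or 2 and 0 without liver 1. The others that were higher were Mogat1, a monoacylglycerol acyltransferase (1.59 ± 0.52, or 0.83 without tumour 5), Plin2, a droplet coat protein (0.36 ± 0.17), and Fabp4, a fatty acid carrier of fat cells and capillaries (0.96 ± 0.40). Cidea and Fabp4 are fat cell genes as well, and the 4 measured genes of the adipocyte list had mean log2 levels of 7.40 to 8.80 in tumours, 6.87 to 7.46 in the other transgenic livers, 9.92 in transgenic liver 4 and 8.37 to 10.27 in WT livers. These 4 include Cidea and Fabp4 themselves. The other 2, Adipoq and Retn, were lower in tumours with liver 4 kept. The median difference of the list was 0.07, or 0.56 without liver 4. The part of fat cells in these differences was not tested. Apoc2, the activator of lipoprotein lipase, gave 18740.6, 18847.2, 20010.7, 13768 and 19630.5 in tumours and 11305.8, 10577.3, 8978.9, 11587.1 and 11654.2 in transgenic livers. The groups did not overlap and tumour 4 was again the lowest tumour (1.67-fold, 0.74 ± 0.18, adjusted p = 0.217). Elovl7, a fatty acid elongase, was higher without overlap (1.51 ± 0.36).

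Most markers of lymphoid cells had lower signals in tumours, with counts at p under 0.05 that changed when single arrays were left out. Of 9 B and plasma cell genes 8 were lower, 3 at p under 0.05, with a median of -0.62. Ighm, the IgM heavy chain, gave 4097.7, 1831.3, 534.3, 884.3 and 4457.4 in tumours and 22447.7, 4325.5, 2077.7, 5640.7 and 9742.7 in transgenic livers. Liver 1 was the highest, and tumours 1 and 5 lay among the livers (-1.88 ± 0.77, adjusted p = 0.501). Jchain, which joins IgM and IgA units, differed by -1.04 ± 0.44 (-0.63 without liver 1), and Mzb1, of the plasma cell endoplasmic reticulum, by -0.64 ± 0.26 (-0.34 without liver 1). Without liver 1 the count at p under 0.05 was 0 and the median was -0.27, and the count was 1 without tumour 3 and 5 without liver 2. Of 13 T and NK cell genes 11 were lower, 2 at p under 0.05, the CD3 chains Cd3e (-0.93 ± 0.44) and Cd3g (-0.54 ± 0.23), and this count was 0 without liver 1 or without liver 5, and 1 without tumour 1, 2 or 3 or liver 3.

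Macrophage and endothelial lists had few members past an unadjusted p of 0.05. Kupffer cell markers had a median of 0.19 and 0 of 17 at p under 0.05 by limma. Of 16 recruited macrophage markers 1 was higher at that level, Lgals3, the lectin galectin-3, which gave 3001, 3525.5, 2643.6, 1339.3 and 3136.9 in tumours and 1042.1, 1274, 1374.2, 1162.2 and 2128.9 in transgenic livers. Tumour 4 was the only tumour among the livers (0.93 ± 0.32). Liver endothelium had a median of 0.03 over 27 genes. Plvap, the fenestral diaphragm protein, gave 1780.6 to 2675.0 in tumours and 1048.5 to 1939.0 in transgenic livers (0.52 ± 0.26, limma adjusted p = 0.617). Sox18, an endothelial transcription factor, was higher without overlap but with a limma adjusted p of 0.789 (0.44 ± 0.30). Apln, the endothelial tip cell peptide apelin, gave 309.5, 402.5, 351.7, 497.6 and 519.7 in tumours and 110.5, 201.2, 216.2, 338.7 and 264.5 in transgenic livers. Tumour 1 alone lay below liver 4 (0.89 ± 0.28, adjusted p = 0.334).

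Keratins split by type. Krt8 (0.44 ± 0.21) and Krt18 (0.43 ± 0.16), the pair that hepatocytes also make, were higher in tumours. Krt19, of bile duct and mesothelium, gave 185.4, 17.2, 16, 204.6 and 73 in tumours and 208.7, 157.3, 72.7, 493.6 and 105.8 in transgenic livers. Tumours 2 and 3 were near the low end of the signals and liver 4 was the highest (-1.14 ± 0.46, limma adjusted p = 0.496). All 9 measured mesothelial genes were lower in tumours, with a median of -0.30, but 2 were at p under 0.05 and 0 were when liver 4 was left out. Anxa2, a membrane-binding annexin of progenitor-like and bile duct cells, gave 8558.8, 3699.3, 6696.2, 5968.6 and 7809.7 in tumours and 2752.9, 2537.4, 2884.9, 5452 and 3654.1 in transgenic livers. Tumour 2 lay among the livers and liver 4 was the highest of them (0.92 ± 0.29).

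Several genes of smallest p lie outside the lists. Mbnl3, a splicing regulator of the muscleblind family, gave 320.1, 287.8, 166.5, 173.5 and 168.7 in tumours and 77.4, 68.7, 76.2, 159.3 and 89.4 in transgenic livers. The lowest tumour was just above liver 4 (2.17-fold, 1.12 ± 0.26, adjusted p = 0.217). Tceal8, of a family named for transcription elongation, gave 1873.9, 1835.1, 2789.9, 1645.2 and 3222.6 in tumours and 978.8, 883.6, 549.8, 1521.6 and 843.5 in transgenic livers. Tumours 3 and 5 were highest, and liver 4 was the highest liver (1.26 ± 0.29). Tubb6, a beta-tubulin, gave 1687.5, 778.9, 1509.8, 863.1 and 1688.5 in tumours and 337.2, 493.2, 454.3, 525.3 and 725.1 in transgenic livers. Tumours 1, 3 and 5 were highest, as for mitotic genes (1.30 ± 0.31, with its other probe set at 0.25). Another tubulin, Tubb2b, was higher without overlap (1.44 ± 0.42), as were Elapor1, a lysosomal membrane protein (1.91 ± 0.45), and Inava, an innate immunity activator (1.72 ± 0.46). A second probe set of Inava gave -0.35.

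Other genes outside the lists were lower in tumours without overlap, with none called. Macrod1, a mitochondrial ADP-ribose hydrolase, gave 551.1, 783.9, 566.3, 944 and 555.8 in tumours and 1366.8, 1409.5, 1402.7, 1811.8 and 1018.3 in transgenic livers. The groups did not overlap (2.05-fold lower in tumours, -1.04 ± 0.24, adjusted p = 0.217). Ndufv1, a subunit of respiratory complex I, gave 5825.5, 6341.8, 4534.8, 6686.7 and 4365.4 in tumours and 7291, 7111.3, 7037, 9045.4 and 7569.8 in transgenic livers. Tumours 3 and 5 were lowest (-0.47 ± 0.12, adjusted p = 0.225). Glyat, the glycine N-acyltransferase of mitochondria (-0.46 ± 0.12), Fahd1, a mitochondrial oxaloacetate decarboxylase (-0.61 ± 0.16), and Slc19a2, a thiamine transporter (-0.48 ± 0.13), were lower without overlap too. So were Cutc, named as a copper transporter (-0.64 ± 0.14), Carnmt1, the carnosine methyltransferase (-0.74 ± 0.19), and Rab11fip2, of endosome recycling (-0.60 ± 0.14). Mustn1, a musculoskeletal gene, gave 125.3 to 272.6 in tumours and 289.3 to 563.4 in transgenic livers (-0.88 ± 0.22). Its highest liver was liver 1, which had the highest mean over the muscle list after liver 4 (7.81 and 13.24). The part of muscle transcripts in this difference was not tested. Of the 15 genes lower by at least 2-fold without overlap, 7 had a signal in liver 4 at least 5 times the median of the other livers. How many of all genes met that limit for liver 4 was not counted.

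Tumours varied among themselves about as much as livers did. The median SD of a gene's log2 signals was 0.24 in tumours and 0.23 in transgenic livers, and the SD was larger in tumours for 53.1% of genes. With liver 4 left out the share was 59.3%, but that compares groups of unequal size. Some genes were high in 1 or a few tumours. Akr1c18, the 20-alpha-hydroxysteroid dehydrogenase, gave 476.2, 198.9, 2271.7, 113.5 and 1689.1 in tumours and 125.7, 149.1, 172.4, 115.4 and 219 in transgenic livers. Tumours 3 and 5 were high, and tumour 4 was the lowest of all 10 arrays (SD of the log2 signals 1.81 in tumours and 0.33 in transgenic livers). Ubd, a ubiquitin-like protein induced by inflammation, gave 2398.9, 4300.2, 4594.9, 464.5 and 5308.2 in tumours and 654.7, 1146.7, 617.3, 893.7 and 1314.5 in transgenic livers. Here 4 tumours were above every liver and tumour 4 was below every liver. Bex4 (1.56 ± 0.45) was highest in tumour 5 at 1217.2, against 46.7 to 122.4 in transgenic livers. Marco, a scavenger receptor of macrophages, was highest in tumour 1 at 971.3, against 152.0 to 200.3 in transgenic livers. Tumour 4 lay with the livers for Cidea, Lgals3 and Akr1c18 and was the lowest tumour for Ly6d, Apoc2, Elovl7, Elapor1 and Ubd, while tumour 2 lay with the livers for several mitotic genes.

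Single genes were also tested over all assignments of the 10 arrays to 2 groups of 5. For 33 measured genes of a panel of 35, a two-sided exact permutation test on mean log2 signals gave p under 0.05 for 14, and 0 after Benjamini-Hochberg adjustment over the panel, where the smallest adjusted exact p was 0.0655. The panel was chosen with earlier results of these data known, so these p-values are no separate support for its genes. The share of all genes at an exact p under 0.05 was not computed. Cdk1, Ly6d, Mcm2 and Rrm2 reached 0.00794, the smallest exact p that 5 against 5 can give. Glul, Golm1, Mki67, Top2a and Ccnd1 had an exact p of 0.0238, and Axin2 and Col1a1 of 0.0159. The others with an exact p under 0.05 were Spink1 (0.0317), Aurka (0.0397) and Cdkn1a (0.0476). Afp, Alb, Cyp2e1, Cps1, Hnf4a, Pdgfc, Pdgfra and Pdgfrb had an exact p of 0.183 or more.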

How the data were processed

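RNA of 34 mouse samples was measured on 1 array each, and 10 of them, 5 tumours and 5 transgenic livers of week 48, were compared. Each deposited value is a linear MAS5 signal intensity (the tool is named in the submitters' processing notes, without a version). Precision is limited by having 5 arrays a group. Of 45101 probe sets, 34945 had exactly 1 gene symbol in the platform's probe table, 932 several and 9160 none, beside 64 controls. Each signal was taken as log2(signal + 16), an offset that shrinks differences of dim genes. The 60% of probe sets with the highest mean over all arrays were kept, and the brightest kept probe set stood for a gene. A model of 7 groups over all 34 arrays was fitted with limma 3.58.1 (lmFit, eBayes with trend) in R 4.3.3, with Benjamini-Hochberg adjustment over 13099 genes, and tested on simulated data. No 2 of the 10 arrays were duplicates (highest correlation 0.974).

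The comparison, its gene lists and its panel were chosen with earlier results of these data known. Genes were named by rule: the panel, the 12 of smallest p and the 10 of largest difference each way among genes whose groups did not overlap (without clones, unnamed, muscle and pancreas list genes), the 4 of smallest p per list with further members where needed, and the 10 that varied most among tumours with a liver SD under 0.5. From these the text names a selection. Lists are described by counts and medians, without a test. Alternatives were other offsets, filters, normalizations, probe set means, array weights, replicate blocks and leaving out each array. Promoter windows are RefSeq's, first window per gene.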

Additional observations from a re-analysis of the deposited data

Results flagged for a closer look

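Among 218 sets of 5 values (the named genes and 2 tissue lists, each in tumours and in transgenic livers), 9 held an array far from the other 4, where chance flags about 1 in 20. The count of 9 does not exceed that share, so a single flag can be chance. Tumour 4 was far below the other tumours for Ly6d (2442.1), Apoc2 (13768) and Cidea (45.1). Tumour 5 was far below the others for Axin2 (80.2), and tumour 3 for Jchain (532.4). Liver 1 was far above the other transgenic livers for Mzb1 (780.7), and liver 3 far below them for Tubb2b (6.7). Liver 4 was far above the other transgenic livers in the mean log2 level of the skeletal muscle list (13.24) and of the pancreatic acinar list (11.27).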

How the results depend on the processing

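Across 22 alternatives, 2319 of 2337 differences of 107 named genes kept their sign and 76 were called. The medians of 12 gene lists moved by less than 1 SD of the list's level among tumours in each of the 264 values. That limit let some medians change sign. With 1 array left out, the cholesterol list ran from -0.28 to 0.085 and the periportal list from -0.062 to 0.069. The other lists kept their sign, though the B and plasma list ran from -0.75 to -0.27. The number of genes called was 0 in 17 alternatives. It was 137 with array weights (the lowest weights among the 10 arrays were 0.699 for liver 4 and 0.746 for tumour 4), 58 with a random replicate block and 16 with a fixed replicate block on the 10 arrays, and it ranged from 0 to 6 with 1 array left out, being 6 without tumour 4 and 1 without liver 5. At unadjusted p under 0.05, genes higher numbered 884 with array weights, 871 and 956 with the random and the fixed replicate block, and 364 (without tumour 5) to 639 with 1 array left out. Genes lower numbered 792 with array weights, 785 with the random replicate block and 350 (without tumour 5) to 635 with 1 array left out. The share of genes more variable in tumours was 59.3% without liver 4. Differences of 6 genes changed sign: Afp ran from -0.38 to 0.022, Alb from -0.036 to 0.067, Cyp2e1 from -0.078 to 0.037, Pdgfc from -0.096 to 0.21 and Pdgfrb from -0.15 to 0.043 with 1 array left out. Alb was -0.0058 under quantile normalization, Pdgfc -0.057 in the 10 arrays without liver 4 (a setting chosen after seeing the data), and with the mean of a gene's probe sets Pdgfrb was 0.0027 and Mycn -0.013. The last is the only one of these 6 genes whose groups did not overlap (0.45). The cause of these shifts was not tested.

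The replicate numbers share no stated source, and a tumour and a liver of 1 number deviated together with r = 0.0771, 0.290, 0.162, 0.133 and 0.265 for numbers 1 to 5. The other combinations of a tumour and a liver gave -0.257 to 0.117. Tumours and livers 2 to 5 each went best with their own number, while tumour 1 went best with liver 4 (0.111) and liver 1 with tumour 4 (0.117). Number 1 stayed under 0.1, so the numbers were not taken as pairs. These values do not settle whether a tumour and a liver of 1 number shared a mouse. Of the named genes 9 were called with the fixed block, 25 with the random block and 40 with array weights. Gins2, Rrm2, Mgp and Macrod1 were called in all of these. Cdkn1a was called with the fixed block alone (adjusted p = 0.0353, against 0.313 with the random block). Of 69 other kept probe sets of the named genes, 60 had the sign of the one used.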

Other observations

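A few genes of other lists stood apart in tumours without passing the test across all genes, and none of their lists did as a whole. Of those named here, Ccl2, Hbegf, Lamc1 and Mycn were not at an unadjusted limma p under 0.05 either. Igfbp3, a carrier of insulin-like growth factors, gave 591.2, 1029.8, 614.5, 846.9 and 649.7 in tumours, against 558.5, 511.7, 435.0, 498.4 and 305.0 in transgenic livers (log2 0.67 ± 0.30), and the groups did not overlap. Ccl2, the chemokine that draws monocytes, gave 190.4, 256.0, 461.5, 177.1 and 455.5 in tumours, against 161.3, 145.6, 173.0, 95.9 and 173.0 in transgenic livers (0.88 ± 0.49), highest in tumours 3 and 5. Atf3, a stress-induced transcription factor, was high in tumours 2, 3 and 5 (0.85 ± 0.32) with tumours 1 and 4 among the livers. Srxn1, a target of the oxidative stress regulator NRF2, was highest in tumours 3 and 5 (0.49 ± 0.21, with another probe set at -0.05), and 16 of 20 NRF2 and glutathione genes were higher, 2 at an unadjusted p under 0.05, with a median of 0.21.

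Hbegf, a ligand of the EGF receptor (0.37 ± 0.22), and Lamc1, a laminin chain of the basement membrane (0.33 ± 0.17), were higher without overlap, though the other probe set of Lamc1 gave -0.07. Mycn was too (0.45 ± 0.24), but its other 2 probe sets gave -0.53 and 0.04. Interferon response genes had a median of -0.01 over 17 genes, and MHC class II genes 0.06 over 8.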
